A study of Homo sapiens with 12 samples.

Results

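The immunoglobulin constant genes IGHA1, IGHA2, IGHG1, IGHG2, IGHG4, IGHM, IGKC and IGLC2 are described here together with JCHAIN and MZB1, across 3 human multiple myeloma cell lines with and without the BET inhibitor JQ1. The 10 genes were taken by symbol from the 60666 Ensembl gene IDs of the deposited count table. All 10 had at least 1 read in a library, and 9 passed the filter on low counts that left 23493 genes for testing. IGHM was the gene that did not pass.

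RNA was sequenced from KMS-11, KMS-12 and RPMI8226, established lines that the labels give as multiple myeloma with genotype WT. Each line had 2 libraries from cells given JQ1 at 1 µM for 72 h and 2 from cells given DMSO, the solvent of JQ1, diluted in PBS to an equal volume; the labels give no time for DMSO. The 6 groups hold 12 libraries in all, of total RNA depleted of ribosomal RNA. Each line is a single cultured line, so a difference between lines is one between these cells and not between kinds of myeloma. Nothing in the labels tells separate cultures from repeat libraries of 1 culture, so the p-values given here reflect library-to-library spread alone and that spread may be technical.

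A plasma cell carries 1 productively rearranged light chain gene, kappa or lambda, and 1 productively rearranged heavy chain gene whose constant part sets the class: mu, delta, gamma, alpha or epsilon. A V gene is joined to the constant gene in the same transcript, so that reads of both mark a rearranged and transcribed locus. JCHAIN encodes the joining chain that links the units of polymeric IgA and IgM, and MZB1 encodes an endoplasmic reticulum protein of B cells and plasma cells that helps immunoglobulin fold and be secreted. JQ1 occupies the acetyl-lysine pocket of BET proteins, which read acetylated histones at active genes.

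Several of these genes are near-identical copies, which limits how well reads can be given to one of them. The hinge is the stretch where the gamma subclasses differ most, and the second coding exon of 3 gamma genes is shown to let them be compared (GENCODE 29, GRCh38, chromosome 14, minus strand, in lower case throughout).
IGHG1, chr14:105742341-105742385: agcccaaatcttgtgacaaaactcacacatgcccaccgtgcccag
IGHG2, chr14:105644068-105644103: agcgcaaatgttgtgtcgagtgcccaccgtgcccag
IGHG4, chr14:105625344-105625379: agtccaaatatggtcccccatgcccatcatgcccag
Over the whole coding sequence IGHG1 was 94.75% identical to IGHG2 and 94.44% to IGHG4, and IGHG2 was 95.02% identical to IGHG4. IGHA1 and IGHA2 were 92.54% identical.

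The lambda genes are closer still. IGLC2 and IGLC3 differ at 3 of 317 coding bases, and the stretch with 2 of the differences is shown with those bases in capitals (GRCh38, plus strand). Counted from 1 at the 5′ end of the stretch, the substitutions from IGLC2 to IGLC3 are T25C and G60A.
IGLC2, chr22:22901163-22901222: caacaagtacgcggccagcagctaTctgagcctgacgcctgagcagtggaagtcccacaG
IGLC3, chr22:22906529-22906588: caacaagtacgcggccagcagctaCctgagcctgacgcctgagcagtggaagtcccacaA
Of the 75-base windows along IGLC2, 40.74% are also in IGLC3 and 0% in IGLC7. Gamma and alpha genes share fewer such windows. Of those along IGHG1, 10.04% are in IGHG2 and 13.32% in IGHG4. Of those along IGHG2, 1.549% are in IGHG4, and of those along IGHA1, 9.949% are in IGHA2. How reads that match several copies were counted is not given in the sources used here, so values of single gamma, alpha and lambda genes are uncertain, and sums over the copies are given beside them.

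Library totals ran from 15424512 to 27366499 counts, and 3 counts, the limit that 0 reads allow, equal 0.107 to 0.178 counts per 1e6 reads (CPM) in 1 library. Such limits cover counting error only. CPM use TMM-scaled library sizes. In KMS-12 the TMM factors were 0.724 and 0.718 in the JQ1 libraries and 1.23 in both DMSO libraries, so that changes in KMS-12 depend most on the scaling. With library size alone in place of TMM, the median log2 fold change of all genes was -0.25 for KMS-11, against 0 with TMM. It was -0.82 for KMS-12, against -0.06 with TMM, and -0.05 for RPMI8226, against -0.03. The 8 plasma cell markers, among them SDC1, CD38 and TNFRSF17, were detected in each group and summed to between 1570 and 4010 CPM per library. Markers of B cells summed to at most 16.2 CPM, of T cells to at most 5.43, of myeloid cells to at most 26.4, of erythroid cells to at most 0.143 and of stromal cells to at most 0.938.

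The 3 lines transcribed different chains. Of the reads on immunoglobulin constant genes in the DMSO libraries, 95% were lambda in RPMI8226 and 304736 of 304802 were kappa in KMS-11. In KMS-12 96.2% were delta (96.1 to 96.4%, 95% exact Clopper-Pearson interval over the reads of both libraries, as for the other shares). Such intervals, here and below, cover counting error only and leave out the spread between libraries, which was larger. Gamma, the most frequent heavy chain of RPMI8226 and KMS-11, took 0.894% (0.843 to 0.947%) and 0.0118% (0.00827 to 0.0164%) of the constant reads there. KMS-12 had 0 of 87128 reads on kappa or lambda constant genes, which allows a share of up to 0.00344% for either by counting error alone. For lambda that limit may not hold, since IGLC1 lies within the annotated span of IGLL5 on the same strand. IGLL5, which is not among the constant reads here, had 201 reads with DMSO in KMS-12. How reads that lie in both genes were counted is not given. IGHM, the constant gene of IgM, had 0 reads in each library of RPMI8226 and KMS-11, and in KMS-12 it had 3 and 2 reads with JQ1 and 0 and 1 with DMSO, too few for a fold change.

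**Figure D1:**
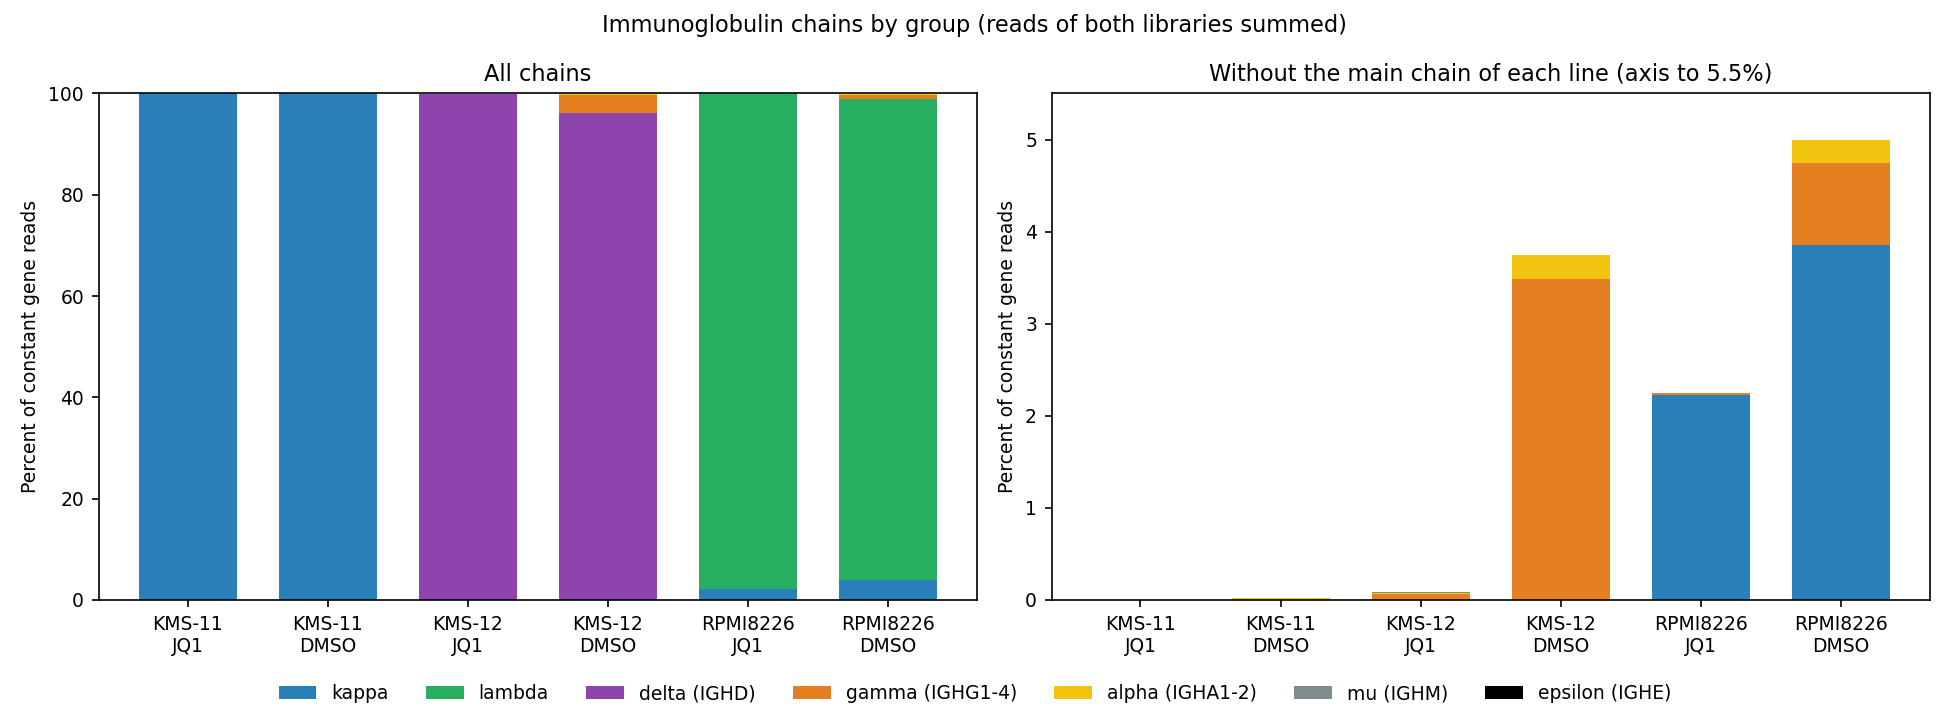
Share of immunoglobulin constant gene reads by chain, in percent, with the reads of both libraries of a group summed; the left panel shows all chains and the right panel the same shares without the main chain of each line, on an axis that ends at 5.5%. Kappa fills KMS-11, delta fills 99.9% of KMS-12 with JQ1 and 96.2% with DMSO, and lambda fills 97.8% of RPMI8226 with JQ1 and 95% with DMSO.

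Of the members tested, 9 of 9 differed between RPMI8226 and KMS-11 in DMSO, 8 of 9 between RPMI8226 and KMS-12, and 6 of 9 between KMS-11 and KMS-12 (quasi-likelihood test of edgeR, with Benjamini-Hochberg adjustment over all genes and a threshold of 0.05). The same tests called 58.2%, 62.5% and 62.9% of all genes, and the 3 comparisons share DMSO libraries. IGLC2 passed the filter on low counts only through RPMI8226, and IGHA1 only through the DMSO libraries of that line. Their calls between RPMI8226 and the other lines are thus not independent of the filter. Higher in RPMI8226 than in KMS-11 were 7 members, beside 30% of all genes, and 2 were lower, beside 28.2%. Higher in RPMI8226 than in KMS-12 were 6, beside 33.2% of all genes, and 2 were lower, beside 29.3%. Higher in KMS-11 than in KMS-12 were IGKC, JCHAIN and MZB1, beside 32.7% of all genes, and lower were IGHA2, IGHG1 and IGHG4, beside 30.2%.

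Under JQ1, 5 of 9 members were called in KMS-11 (1 higher, 4 lower), beside 38.5% of all genes (17.3% higher, 21.2% lower). The count in KMS-11 was 4 without either of its JQ1 libraries or without its first DMSO library. In KMS-12 7 of 9 were called (1 higher, 6 lower), beside 46% of all genes (20.2% higher, 25.7% lower), and 6 or 7 when single libraries were left out. In RPMI8226 7 of 9 were called, all lower, beside 32.2% of all genes (18.6% lower). IGHA1, among the 7, passed the filter only through the DMSO libraries of that line. Where a group had no read the change is a bound, set with 3 counts over the group. With those genes at their bounds, the median log2 fold change was -1.82 over 6 members in KMS-11, -2.46 over 8 in KMS-12 and -4.46 over all 9 tested in RPMI8226. The medians of all genes in the 3 comparisons, given above, lay between -0.06 and 0.

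**Figure D2:**
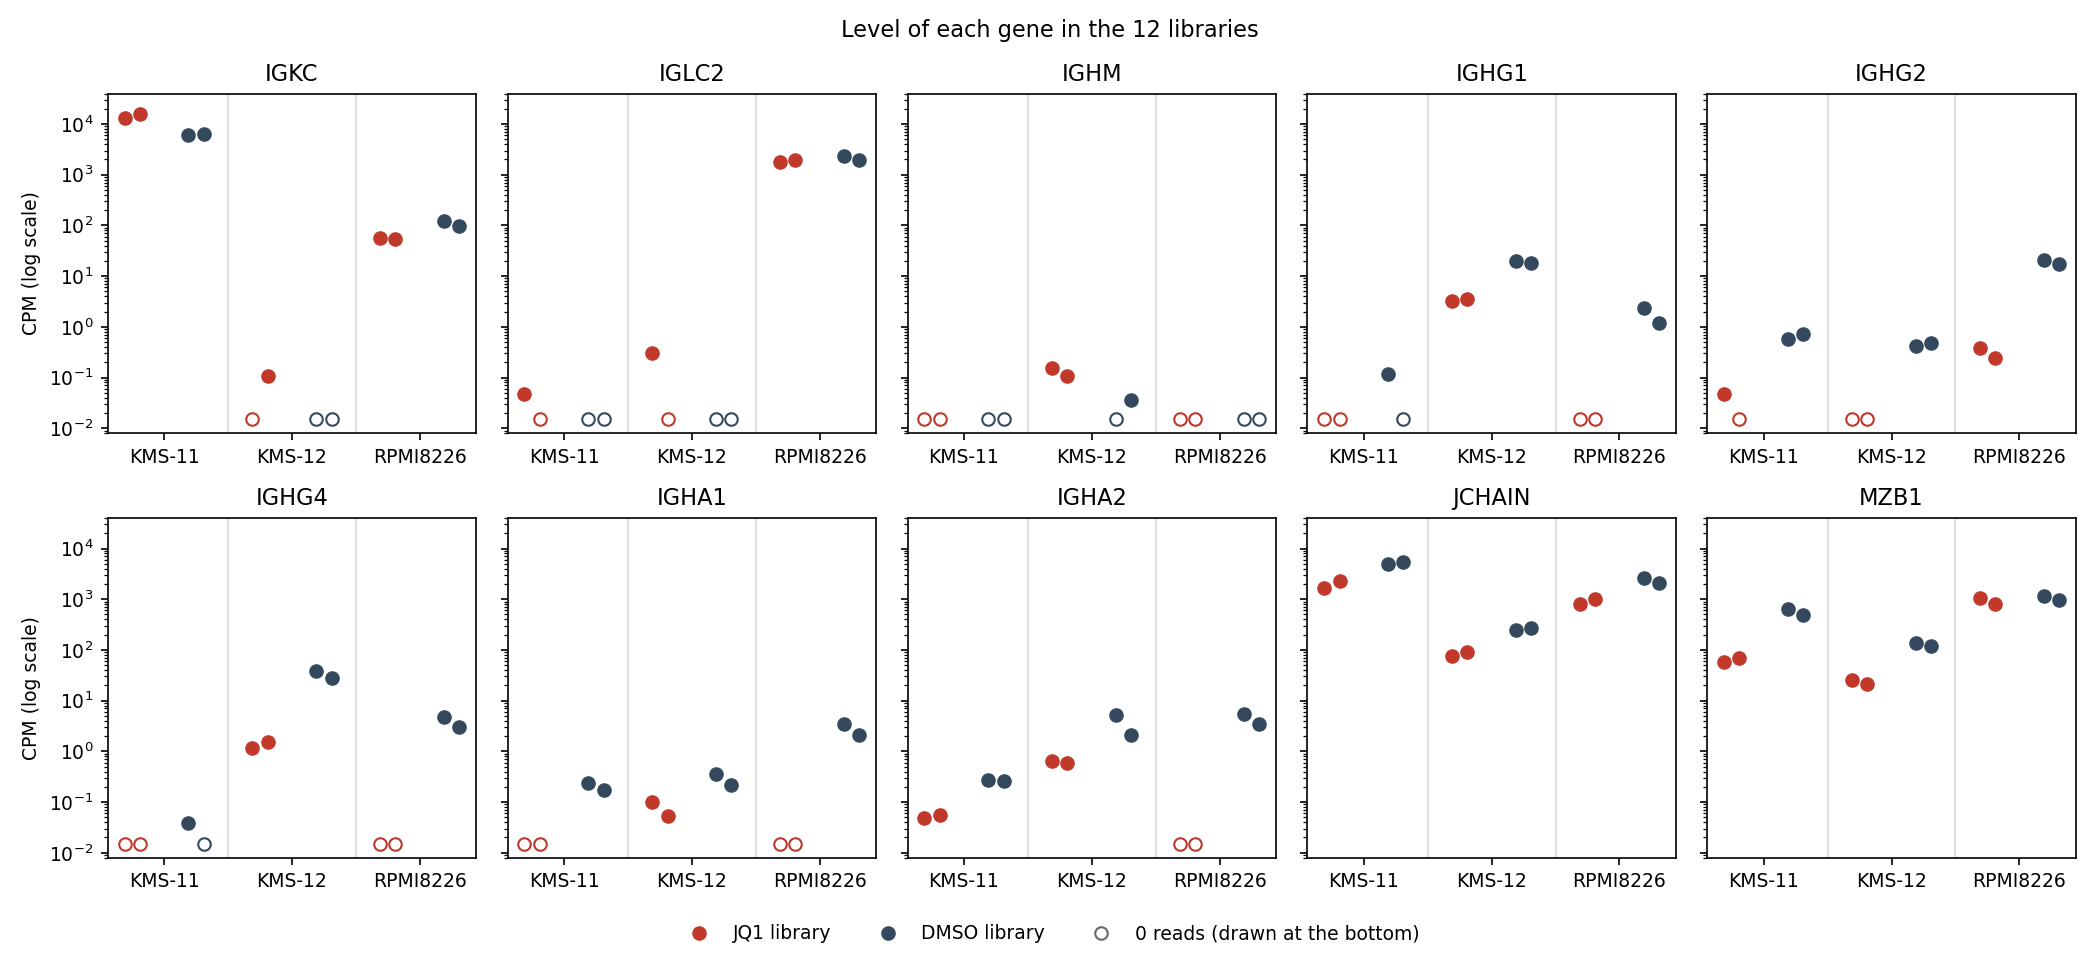
CPM on a log axis for the 10 genes in each of the 12 libraries, JQ1 libraries left of DMSO libraries within each line; open points at the bottom are libraries with 0 reads. IGKC is high in KMS-11, IGLC2 in RPMI8226, and JCHAIN lies lower in both JQ1 libraries than in both DMSO libraries of all 3 lines.

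The light chain of KMS-11 rose under JQ1. IGKC, the kappa constant gene (ENSG00000211592, chr2:88857161-88857683, minus strand), had 13260 and 15640 CPM in the JQ1 libraries of KMS-11 and 5957 and 6492 CPM in its DMSO libraries. Both JQ1 libraries lay above both DMSO libraries. The rise was 2.32-fold (log2 fold change 1.22, SE 0.14; edgeR, Benjamini-Hochberg adjusted p = 3.93e-06, n = 2 each). In read counts that was 278695 and 278946 reads with JQ1, against 153904 and 150832 with DMSO. JQ1 libraries of KMS-11 gave 1.35% and 1.59% of all their reads to immunoglobulin genes, and DMSO libraries 0.747% and 0.767%. In bulk RNA, a change in the number of cells that make a transcript and a change in the RNA per cell cannot be told apart.

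The kappa V gene moved with its constant gene. IGKV3-15 (chr2:89085177-89085787) took 95.4% of the IGKV reads of KMS-11 with JQ1 and 95.8% with DMSO, and it rose by 1.18 on the log2 scale (SE 0.11; edgeR, adjusted p = 1.92e-06). Its reads per IGKC read were 0.132 and 0.13 with JQ1, and 0.132 and 0.137 with DMSO. The ratio of V to constant reads thus changed little while both genes rose.

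The light chain of RPMI8226 did not pass the test. IGLC2, a lambda constant gene (ENSG00000211677, chr22:22900976-22901437, plus strand), had 1780 and 1929 CPM with JQ1 and 2295 and 1940 CPM with DMSO. The lower DMSO library lay just above the higher JQ1 library. The log2 fold change was -0.19 (SE 0.16; edgeR, adjusted p = 0.399), and leaving out single libraries gave -0.31 to -0.07.

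Other lambda genes of RPMI8226 gave values of the same size. IGLC3 had 526 and 567 CPM with JQ1, and 628.8 and 561.4 CPM with DMSO (log2 fold change -0.12, SE 0.10; edgeR, adjusted p = 0.391). IGLC7 had 9.05 and 8.55 CPM with JQ1, and 13.1 and 10.9 CPM with DMSO (log2 fold change -0.44, SE 0.24; adjusted p = 0.19). IGLC3 reads per IGLC2 read were 0.296 and 0.294 with JQ1, and 0.274 and 0.289 with DMSO. Summed over IGLC1 to IGLC7, the lambda constant genes changed by -0.18 on the log2 scale (SE 0.16; edgeR, adjusted p = 0.43). IGLV2-14 (chr22:22758700-22759218), with 82.1% of the IGLV reads under JQ1 and 82.3% under DMSO, changed by -0.21 (SE 0.11; adjusted p = 0.178). With limma-voom IGLV2-14 and IGLC7 were called lower (adjusted p = 0.0229 and 0.0429), and IGLV2-14 also without the second DMSO library of KMS-11 (edgeR, adjusted p = 0.0499).

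RPMI8226 also held kappa reads. IGKC had 55.5 and 53.6 CPM with JQ1 and 123.7 and 97.9 CPM with DMSO in this line, with no overlap. It fell by 1.02 on the log2 scale (SE 0.15; edgeR, adjusted p = 5.78e-05), and its level in DMSO was 56.2-fold below that in KMS-11 (log2 fold change -5.81, SE 0.17; adjusted p = 5.03e-14). IGKV5-2 had the most kappa V reads in this line, and no kappa V gene reached 100 reads in RPMI8226. All IGKV genes together had 111 reads there with JQ1 and 82 with DMSO, beside 2085 IGKC reads with JQ1 and 4872 with DMSO. In KMS-11 the same sums were 76735 IGKV reads beside 557641 IGKC reads with JQ1, and 42661 beside 304736 with DMSO.

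IGKC responded differently in the lines (edgeR F test of a difference between the 3 responses, adjusted p = 1.69e-06), a rise in KMS-11 and a fall in RPMI8226. In this test 5 of 9 members were called, beside 30.1% of all genes. The remaining reads on kappa and lambda constant genes were few, with IGLL5 set apart. KMS-12 had 0 and 2 IGKC reads with JQ1 and 0 with DMSO. IGLC2 was called higher in KMS-12 (edgeR, adjusted p = 0.0443), but it rests on 6 reads in 1 JQ1 library, with 0 reads in the other and in both DMSO libraries, so that without that library no IGLC2 read is left in KMS-12. A difference between the IGLC2 responses was not called (adjusted p = 0.0948), but it was with the replicate pairs as a block within each line (adjusted p = 0.0198). IGLC2 had 1 read in KMS-11, in a JQ1 library. V genes were grouped by symbol as IGHV, IGKV or IGLV, without regard to position. In groups with no main V gene, the leading ones were IGHV6-1 and IGLVIVOR22-1 in KMS-11 and IGKV1D-17 and IGLVIVOR22-1 in KMS-12. They had at most 77 reads over the libraries of a line and treatment.

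The heavy chain of KMS-12 rose under JQ1 as the kappa chain of KMS-11 did. IGHD, the delta constant gene (ENSG00000211898, chr14:105836765-105845678, minus strand), had 6785 and 7479 CPM with JQ1 and 1525 and 1496 CPM with DMSO. The rise was 4.72-fold (log2 fold change 2.24, SE 0.16; edgeR, adjusted p = 1.5e-07), and with library size alone the log2 fold change was 1.47. IGHV3-7 (chr14:106062151-106062683) took 98.2% of the IGHV reads of KMS-12 with JQ1 and 96.8% with DMSO. It rose by 2.12 (SE 0.18; adjusted p = 6.55e-06), and it had 0.129 and 0.152 reads per IGHD read with JQ1, and 0.136 and 0.171 with DMSO. The 8 plasma cell markers summed to 3950 to 4010 CPM with JQ1 and 2140 to 2170 CPM with DMSO in KMS-12. Of the 8, 4 were called higher and 3 lower with TMM (SLAMF7, TNFRSF17 and POU2AF1), and 1 higher and 3 lower with library size alone. IRF4 made up most of the sum, at 2399 CPM with JQ1 and 1424 CPM with DMSO. The part of these markers in the result was not tested. That list shares PRDM1, IRF4, XBP1 and POU2AF1 with the list of immunoglobulin transcription factors. RPMI8226 had 0 IGHD reads, and KMS-11 had 5, all in 1 JQ1 library.

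The gamma genes, which encode the IgG subclasses, fell in KMS-12 while delta rose. IGHG4 (ENSG00000211892) had 1.16 and 1.53 CPM with JQ1 and 39.3 and 28.4 CPM with DMSO in KMS-12, a 25.1-fold fall (log2 fold change -4.65, SE 0.30; edgeR, adjusted p = 5.85e-09). IGHG1 (ENSG00000211896) had 3.18 and 3.58 CPM with JQ1 and 20.1 and 17.8 CPM with DMSO, a 5.61-fold fall (log2 fold change -2.49, SE 0.30; adjusted p = 6.2e-06). Neither gene's groups overlapped. IGHG2 (ENSG00000211893) had 0 reads with JQ1 and 12 and 13 with DMSO, at least 5.83-fold lower (adjusted p = 0.000261). The gamma share of constant reads in KMS-12 was 0.0672% with JQ1 (0.0579 to 0.0776%) and 3.49% with DMSO (3.37 to 3.62%).

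RPMI8226 lost nearly all of its gamma reads. IGHG2 had 0.375 and 0.238 CPM with JQ1 and 20.5 and 17.7 CPM with DMSO, that is 8 and 4 reads against 415 and 427. The fall was 59.8-fold (log2 fold change -5.90, SE 0.35; edgeR, adjusted p = 4.4e-09). IGHG4 and IGHG1 had no read with JQ1, against 97 and 74 reads and 48 and 29 reads with DMSO. They were at least 49-fold and at least 22-fold lower (adjusted p = 5.67e-07 and 2.88e-05). All IGHV reads of RPMI8226, 20 with JQ1 and 22 with DMSO, were on IGHV1OR15-6, so that the gamma reads of the DMSO libraries, 1131 in all, stood beside almost no V reads.

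In KMS-11 gamma reads were rare in either condition. IGHG2 had 1 and 0 reads with JQ1 and 15 and 17 with DMSO, a called fall (log2 fold change -4.39, SE 0.78; edgeR, adjusted p = 0.000255) whose size rests on 1 read. IGHG1 had 0 reads with JQ1 and 3 with DMSO, and IGHG4 had 0 with JQ1 and 1 with DMSO, at or under the limit of 3 counts. Summed with the pseudogene IGHGP, the gamma genes fell in each line, with a log2 fold change of -3.07 in KMS-11 (SE 0.47; edgeR, adjusted p = 4.45e-05), -3.51 in KMS-12 (SE 0.19; adjusted p = 2.21e-10) and -6.24 in RPMI8226 (SE 0.28; adjusted p = 9.73e-11).

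The lines differed in which gamma gene led in DMSO. IGHG2 averaged 19.1 ± 2.0 CPM in RPMI8226 and 0.451 ± 0.032 CPM in KMS-12 (SD, n = 2 each), 41.8-fold apart (log2 fold change 5.39, SE 0.32; edgeR, adjusted p = 1.44e-10). IGHG4 averaged 3.93 ± 1.22 CPM in RPMI8226 and 33.9 ± 7.7 CPM in KMS-12, 8.67-fold lower in RPMI8226 (log2 fold change -3.12, SE 0.26; adjusted p = 3.02e-08). IGHG1 averaged 1.79 ± 0.83 CPM in RPMI8226 and 19.0 ± 1.6 CPM in KMS-12, 10.8-fold lower in RPMI8226 (log2 fold change -3.43, SE 0.32; adjusted p = 1.42e-07). The JQ1 response of IGHG1 differed between lines (adjusted p = 0.0224). That of IGHG2 and of IGHG4 did not pass the test (adjusted p = 0.713 and 0.0756), and IGHG4 did pass it with DESeq2 (0.0278) and limma-voom (0.00544).

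The alpha genes, which encode IgA, were scarcer and fell in the same libraries. IGHA2 (ENSG00000211890) had 0.656 and 0.579 CPM with JQ1 and 5.17 and 2.11 CPM with DMSO in KMS-12, a 5.85-fold fall (log2 fold change -2.55, SE 0.46; edgeR, adjusted p = 0.000226). Without the first DMSO library of KMS-12 that IGHA2 value was -1.76, with adjusted p = 0.00972. In RPMI8226 IGHA2 had 0 reads with JQ1 and 110 and 85 with DMSO, and IGHA1 (ENSG00000211895) had 0 with JQ1 and 71 and 51 with DMSO. They were at least 55.8-fold and at least 34.9-fold lower (adjusted p = 1.99e-06 and 1.17e-05). No other group reached the filter's minimum count of 10 for IGHA1 in both libraries. That gene thus passed the filter through the DMSO libraries of this comparison. In KMS-11 IGHA1 had 0 reads with JQ1 and 6 and 4 with DMSO, at least 2.64-fold lower (adjusted p = 0.0181). IGHA2 had 1 read in each JQ1 library of KMS-11 and 7 and 6 with DMSO (log2 fold change -2.24, SE 1.06; adjusted p = 0.107). IGHA1 in KMS-12 had 2 and 1 reads with JQ1 and 10 and 6 with DMSO (log2 fold change -1.82, SE 0.87; adjusted p = 0.101), and it was called with library size alone (-2.55, adjusted p = 0.016).

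Summed over IGHA1 and IGHA2, alpha reads fell by 3.05 in KMS-11 (SE 0.96) and by 2.49 in KMS-12 (SE 0.44) on the log2 scale and were at least 90.8-fold lower in RPMI8226 (edgeR, adjusted p = 0.0184, 0.000194 and 4.23e-07). Without the first DMSO library the KMS-12 alpha value was -1.73. The KMS-11 value rests on 23 DMSO reads and lost its call without either JQ1 library or without the first DMSO library (adjusted p up to 0.109). In DMSO, IGHA2 averaged 4.47 ± 1.35 CPM in RPMI8226 and 3.64 ± 2.16 CPM in KMS-12 (SD, n = 2 each), with overlapping libraries.

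Some markers of other cell types were lower in the libraries with fewer gamma and alpha reads, and some were higher. The 6 B cell markers summed to 0.202 to 0.263 CPM with JQ1 and 1.43 to 1.49 CPM with DMSO in KMS-12, and to 3.15 to 3.42 CPM with JQ1 and 8.11 to 14.5 CPM with DMSO in RPMI8226. MS4A1, a defining B cell gene, was at 0 in KMS-12 in both conditions. In KMS-11 the B cell sums were 10.8 to 15.6 CPM with JQ1 and 10.9 to 16.2 CPM with DMSO. The 4 T cell markers summed to 0.0951 to 0.168 CPM with JQ1 and 1.35 to 3.14 CPM with DMSO in KMS-11. In KMS-12 the T cell sums were 0.368 to 0.505 CPM with JQ1 and 4.03 to 4.59 CPM with DMSO. In RPMI8226 they were 0.653 to 0.985 CPM with JQ1 and 4.97 to 5.43 CPM with DMSO. The 5 myeloid markers summed to 3.42 to 5.64 CPM with JQ1 and 22.5 to 26.4 CPM with DMSO in RPMI8226. They were higher with JQ1 in KMS-11, at 3.53 to 4.04 CPM against 1.42 to 2.01 CPM with DMSO, and in KMS-12, at 1.56 to 1.74 CPM against 0.641 to 0.801 CPM with DMSO. The part of any such marker list in the gamma and alpha results was not tested.

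**Figure D3:**
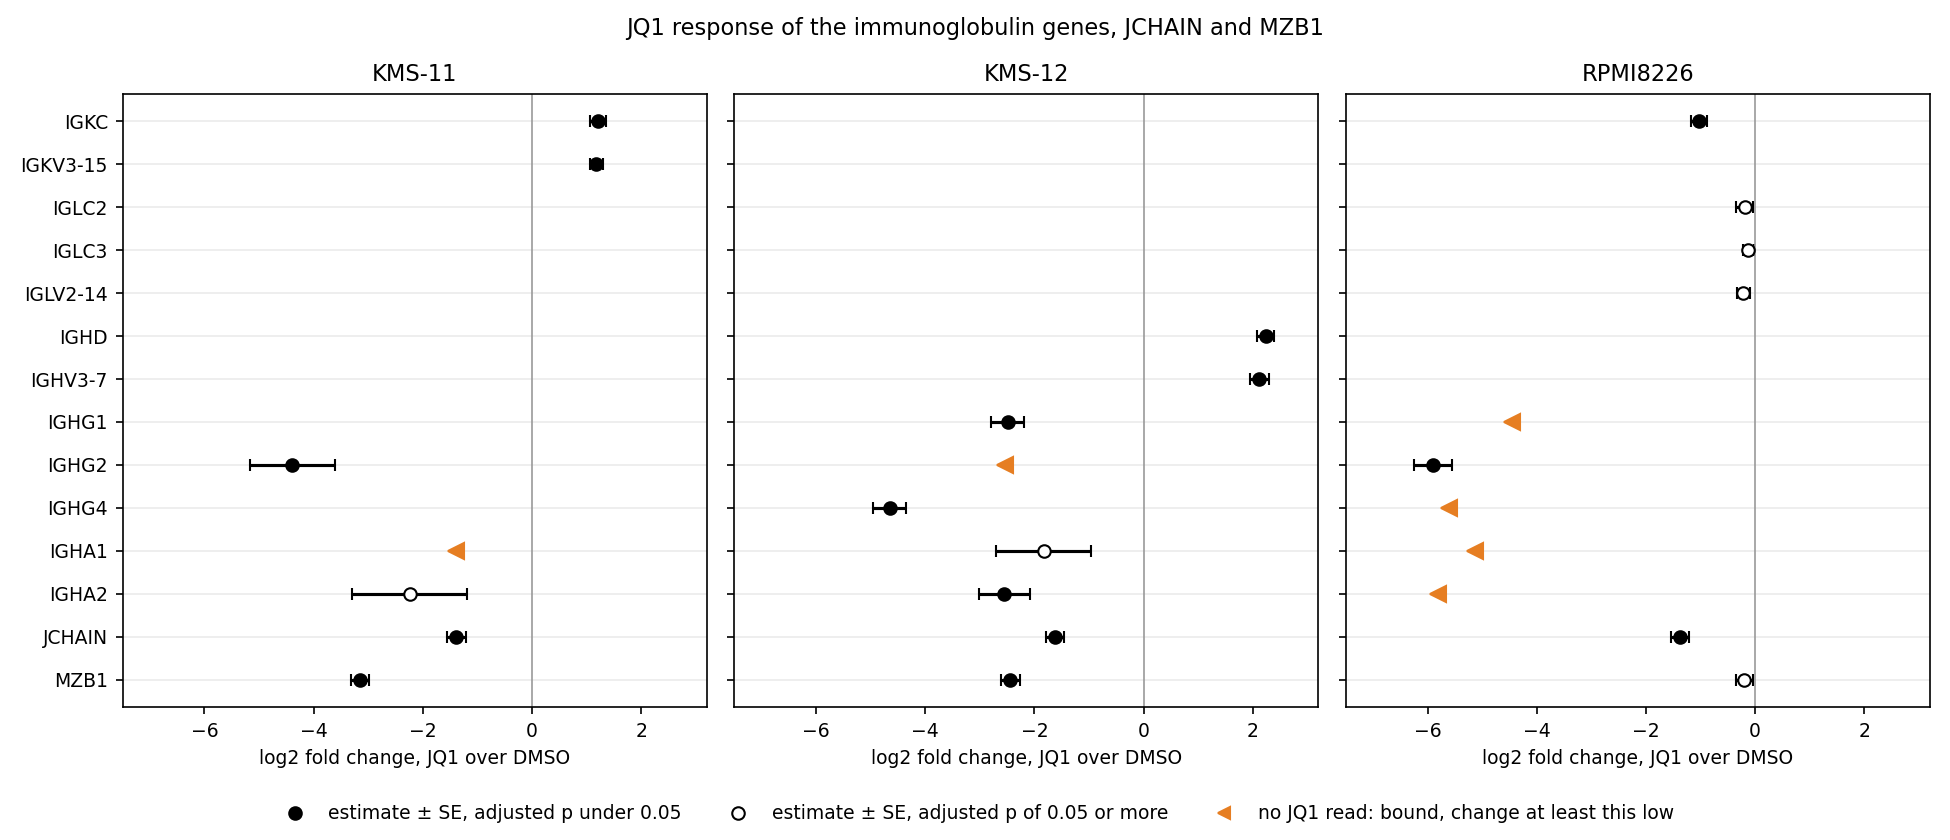
Log2 fold change of JQ1 over DMSO in each line, with points and bars for the estimate ± SE; filled points passed an adjusted p of 0.05, open points did not, orange triangles are bounds where no JQ1 library had a read, and other genes with 10 or fewer reads in a comparison are not drawn. IGKC and IGKV3-15 in KMS-11 and IGHD and IGHV3-7 in KMS-12 lie right of 0, the lambda genes of RPMI8226 lie near 0, and the gamma and alpha genes lie left of 0.

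JCHAIN fell in all 3 lines by similar amounts. This gene (ENSG00000132465, chr4:70655541-70681817, minus strand) had 1659 and 2321 CPM with JQ1 and 4945 and 5444 CPM with DMSO in KMS-11. In KMS-12 it had 74.4 and 90.9 CPM with JQ1, against 243.7 and 265 CPM with DMSO. In RPMI8226 it had 822.9 and 1018 CPM with JQ1, against 2673 and 2102 CPM with DMSO. The groups did not overlap in any line.

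The log2 fold changes of JCHAIN were -1.38 in KMS-11 (SE 0.17; edgeR, adjusted p = 1.07e-05), -1.62 in KMS-12 (SE 0.17; adjusted p = 1.86e-06) and -1.38 in RPMI8226 (SE 0.17; adjusted p = 2.05e-05). The average of the lines was -1.46 (SE 0.10, edgeR, adjusted p = 7.1e-09), a 2.75-fold fall. In that average 7 of 9 members were called, all lower, beside 49% of all genes (26.7% lower). The gamma and alpha genes among the 7 each had a JQ1 group with 0 reads, so their average change cannot be read. That leaves JCHAIN and MZB1. For JCHAIN a difference between the 3 responses did not pass the test (edgeR F test, adjusted p = 0.666). It did with library size alone (adjusted p = 0.00751), where the log2 fold changes were -1.64, -2.39 and -1.40.

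Across the 6 groups the order of JCHAIN was KMS-11 with DMSO (5194 CPM), RPMI8226 with DMSO (2388), KMS-11 with JQ1 (1990), RPMI8226 with JQ1 (920), KMS-12 with DMSO (254) and KMS-12 with JQ1 (82.6). The second and the third group overlapped, and the other neighbours did not. In DMSO, RPMI8226 lay below KMS-11 by a log2 fold change of -1.12 (SE 0.17; edgeR, adjusted p = 3.48e-05) and above KMS-12 by 3.23 (SE 0.18; adjusted p = 3.83e-10), and KMS-11 lay above KMS-12 by 4.35 (SE 0.19; adjusted p = 1.98e-11).

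JCHAIN and the main chain of a line parted under JQ1. Per kilobase of annotated exon, JCHAIN in KMS-11 stood at 0.039 and 0.0462 of the IGKC level with JQ1, against 0.258 and 0.261 with DMSO. In KMS-12 it stood at 0.0111 and 0.0124 of IGHD with JQ1, against 0.163 and 0.18 with DMSO. In RPMI8226 it stood at 0.127 and 0.145 of IGLC2 with JQ1, against 0.32 and 0.298 with DMSO. JCHAIN was thus a smaller part of the main chain's level in both JQ1 libraries of each line.

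**Figure D4:**
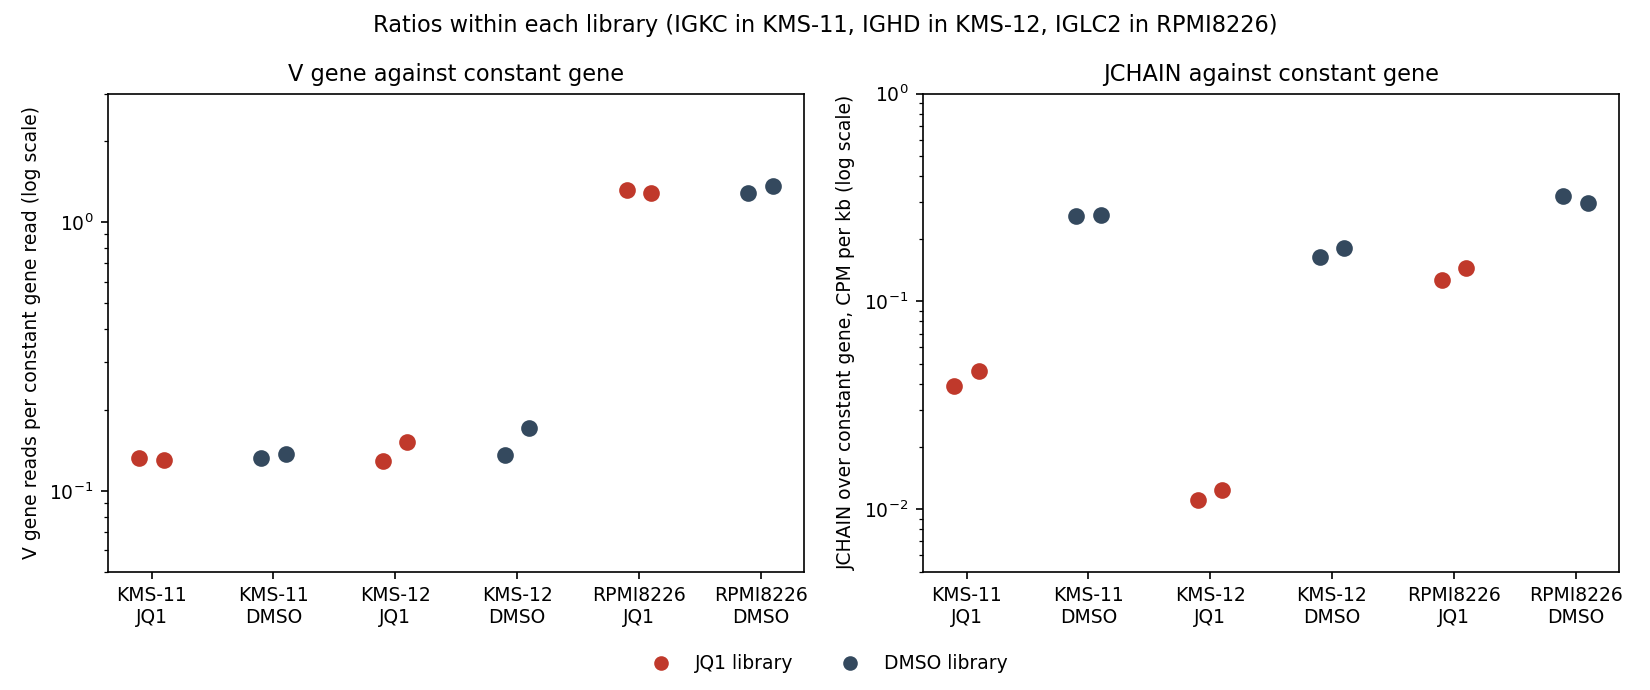
Ratios within each library on log axes, JQ1 groups left of DMSO groups; the left panel shows reads of the main V gene per read of the constant gene, and the right panel the JCHAIN level over the constant gene level, both as CPM per kilobase of exon. V to constant ratios overlap or nearly touch between JQ1 and DMSO, while JCHAIN ratios are lower in both JQ1 libraries of each line.

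MZB1 fell in KMS-11 and KMS-12 and not detectably in RPMI8226. MZB1 (ENSG00000170476, chr5:139387480-139390081, minus strand) had 57.0 and 69.0 CPM with JQ1 and 628.5 and 487.1 CPM with DMSO in KMS-11, an 8.86-fold fall (log2 fold change -3.15, SE 0.17; edgeR, adjusted p = 7.07e-09). In KMS-12 it had 25.5 and 21.7 CPM with JQ1 and 135 and 121 CPM with DMSO, a 5.42-fold fall (log2 fold change -2.44, SE 0.17; adjusted p = 5.46e-08). In RPMI8226 it had 1053 and 820.1 CPM with JQ1 and 1184 and 962.9 CPM with DMSO, and those libraries overlapped.

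The RPMI8226 value of MZB1 was -0.20 on the log2 scale (SE 0.16; edgeR, adjusted p = 0.377), between -0.39 and -0.03 when single libraries were left out. The 3 responses differed (adjusted p = 9.7e-07). Over the 6 groups MZB1 was highest in RPMI8226 with DMSO (1074 CPM) and with JQ1 (937), followed by KMS-11 with DMSO (558), KMS-12 with DMSO (128), KMS-11 with JQ1 (63.0) and KMS-12 with JQ1 (23.6). The first 2 overlapped, and the other neighbours did not. In DMSO, RPMI8226 lay above KMS-11 by 0.94 (SE 0.16; adjusted p = 0.000132) and above KMS-12 by 3.07 (SE 0.17; adjusted p = 9.08e-10), and KMS-11 above KMS-12 by 2.12 (SE 0.16; adjusted p = 3.53e-08).

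On a per-length scale in DMSO, IGLC2 stood at 4583 CPM per kilobase in RPMI8226, JCHAIN at 1421, IGLC3 at 1288, MZB1 at 472, IGKC at 212 and IGHG2 at 6.97. In KMS-11, IGKC stood at 11900 CPM per kilobase, JCHAIN at 3092 and MZB1 at 245. In KMS-12, IGHD stood at 884, JCHAIN at 151, MZB1 at 56.3, IGHG4 at 12.4 and IGHG1 at 6.87. The leading V genes stood at 6931 CPM per kilobase in RPMI8226 (IGLV2-14), 1891 in KMS-11 (IGKV3-15) and 539 in KMS-12 (IGHV3-7). Among constant genes, JCHAIN and MZB1, the main constant gene of each line led and JCHAIN came next.

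Promoter motifs of JCHAIN and MZB1 were searched because both fell in KMS-11 and KMS-12 and parted in RPMI8226. The window was the 250 bases before the RefSeq start (GRCh38.p14), and motifs were searched on both strands. The stretches printed below lie inside the GENCODE gene spans given above, which begin further upstream. The matches thus hold for the RefSeq starts alone. The octamer ATGCAAAT, bound by POU2F1 and POU2F2 with their coactivator POU2AF1, is in 1.63% of 35116 promoters and in neither of these. Its 7-base parts ATGCAAA (3.94% of promoters) and TGCAAAT (3.67%), which overlap each other in a full octamer, each matched JCHAIN once. MZB1 holds an E box CACGTG (6.34%) and a CCAAT box (32%), and TATAAA (10.7%) is in neither window.
JCHAIN, chr4:70666729-70666758, part ATGCAAA in capitals: tgtaaATGCAAAataaaaatgattgtatca
JCHAIN, chr4:70666551-70666580, TGCAAAT on the other strand in capitals: agaagcaccatcATTTGCAcactccttata
MZB1, chr5:139390013-139390042, E box in capitals: gaggacaatgccCACGTGgcatcttcgggg
MZB1, chr5:139389944-139389973, CCAAT on the other strand in capitals: gtgtcagttccccATTGGtctaggccaggt
The sequences run 5′ to 3′ on the minus strand. A match is a description of the letters and not a bound site.

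Among the 12 other constant and constant-like genes 6 passed the filter. None was called in KMS-11 by edgeR, where IGHD had an unadjusted p of 0.0266, and with the replicate pairs as a block within each line 1 was called higher. In KMS-12 1 was higher, IGHD, and 2 were lower, IGHG3 and IGLL1. IGHG3 alone was lower in RPMI8226. IGHG3 and IGLL1 were named after their values were seen, and neither passed 42 reads in a library. IGLL5, an immunoglobulin lambda-like gene, had 2.22 and 2.58 CPM with JQ1 and 3.71 and 3.53 CPM with DMSO in KMS-12 (log2 fold change -0.59, SE 0.43; adjusted p = 0.283), and it was called with library size alone (-1.36, adjusted p = 0.0127).

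Of 26 factors for immunoglobulin transcription and mRNA processing, KMS-11 had 6 higher and 3 lower, KMS-12 had 9 higher and 4 lower, and RPMI8226 had 4 higher and 9 lower. All called factors together were 9, 13 and 13 of 26, beside 38.5%, 46% and 32.2% of all genes. With library size alone 5 were higher and 9 lower in KMS-11, 4 higher and 15 lower in KMS-12, and 3 higher and 9 lower in RPMI8226. The median log2 fold change, over genes with reads in both groups, was 0.06 in KMS-11 (24 genes), 0.05 in KMS-12 (23) and -0.28 in RPMI8226 (25). The responses differed between lines for 18 of 26, beside 30.1% of all genes.

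POU2AF1, the coactivator of octamer factors, had 603.3 and 745.5 CPM with JQ1 and 281.8 and 267.2 CPM with DMSO in KMS-11 (log2 fold change 1.30, SE 0.11; edgeR, adjusted p = 4.51e-08). It moved the other way in KMS-12, at 1.26 and 1.32 CPM with JQ1 and 5.27 and 6.37 CPM with DMSO (-2.17, SE 0.19; adjusted p = 5.06e-08), and in RPMI8226, at 106.1 and 106.6 CPM with JQ1 and 305.5 and 321.2 CPM with DMSO (-1.56, SE 0.11; adjusted p = 1.38e-08). PRDM1, the Blimp-1 regulator of plasma cell fate, rose by 1.09 in KMS-11 (SE 0.14; adjusted p = 8.79e-06) and by 2.14 in KMS-12 (SE 0.14; adjusted p = 4.8e-09). TENT5C, a poly(A) polymerase that extends mRNAs of secreted proteins, had 560.5 and 561.7 CPM with JQ1 and 59.3 and 63.5 CPM with DMSO in KMS-12, a rise of 3.19 (SE 0.14; adjusted p = 3.45e-11).

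Other factors with the smallest adjusted p in a line were as follows. TCF4, an E protein, rose by 1.14 (SE 0.13; edgeR, adjusted p = 1.48e-06) and ELL2, an elongation factor for secreted heavy chain mRNA, rose by 1.10 in KMS-11 (SE 0.13; adjusted p = 2.34e-06). IKZF3, the Aiolos factor, fell by 1.12 in KMS-12 (SE 0.11; adjusted p = 3e-07). In RPMI8226 POU2F2, the Oct-2 factor, fell by 2.14 (SE 0.25; adjusted p = 4.62e-06), IRF4, a regulator that plasma cells need, fell by 0.72 (SE 0.11; adjusted p = 9.45e-05) while it rose by 0.75 in KMS-12 (SE 0.11; adjusted p = 2.43e-05), and in RPMI8226 ETS1 rose by 1.59 (SE 0.20; adjusted p = 3.4e-05).

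Endoplasmic reticulum helpers of immunoglobulin folding lay below the median of all genes in KMS-11 and RPMI8226 and above it in KMS-12. Of 28 genes, KMS-11 had 2 higher and 24 lower, KMS-12 had 16 higher and 3 lower, and RPMI8226 had none higher and 15 lower. Over all genes KMS-11 had 17.3% higher and 21.2% lower, KMS-12 had 20.2% higher and 25.7% lower, and RPMI8226 had 13.6% higher and 18.6% lower. With library size alone 5 helpers were higher and 11 lower in KMS-12, where that scaling also gave 7.49% of all calls as higher. The helpers' median there was -0.29 with library size alone, beside -0.82 for all genes, and 0.46 with TMM, beside -0.06 for all genes. The median log2 fold change with TMM was -1.10 in KMS-11 and -0.49 in RPMI8226. The response differed between lines for 22 of 28, beside 30.1% of all genes.

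PRDX4, a peroxiredoxin of the endoplasmic reticulum, had 41.6 and 55.0 CPM with JQ1 and 164.4 and 176.8 CPM with DMSO in KMS-11 (log2 fold change -1.82, SE 0.12; edgeR, adjusted p = 2.94e-09). LMAN1, a cargo receptor for transport to the Golgi, fell by 1.59 there (SE 0.11; adjusted p = 5.25e-09), and PDIA6, a disulfide isomerase, fell by 1.39 (SE 0.11; adjusted p = 2.4e-08). In RPMI8226 PRDX4 fell by 1.32 (SE 0.12; adjusted p = 2.29e-07), LMAN1 by 1.19 (SE 0.11; adjusted p = 2.8e-07) and PDIA6 by 0.79 (SE 0.11; adjusted p = 2.27e-05). FKBP11, a prolyl isomerase, fell by 1.67 in RPMI8226 (SE 0.18; adjusted p = 2.29e-05).

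P4HB, the disulfide isomerase PDI, had 3188 and 3386 CPM with JQ1 and 701 and 713 CPM with DMSO in KMS-12 (log2 fold change 2.22, SE 0.12; edgeR, adjusted p = 2.17e-10). In KMS-11 it had 619.3 and 727 CPM with JQ1 and 1569 and 1614 CPM with DMSO (-1.24, SE 0.12; adjusted p = 2.36e-07). TXNDC11, a thioredoxin domain protein, had 2218 and 2171 CPM with JQ1 and 270.5 and 298.7 CPM with DMSO in KMS-12 (2.95, SE 0.12; adjusted p = 1.12e-11). CALR, the chaperone calreticulin, rose by 1.61 in KMS-12 (SE 0.12; adjusted p = 1.01e-08). PDIA3, its partner isomerase, rose by 0.94 (SE 0.12; adjusted p = 5.44e-06), and that call was lost with library size alone (0.17, adjusted p = 0.278).

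Surface partners of immunoglobulin mostly fell. Of 9 genes 7 were tested. KMS-11 had 1 higher and 4 lower, KMS-12 had 1 higher and 5 lower, and RPMI8226 had none higher and 5 lower. Of all genes 38.5%, 46% and 32.2% were called in the 3 lines (17.3%, 20.2% and 13.6% higher, and 21.2%, 25.7% and 18.6% lower). The median log2 fold change was -2.03 over 6 genes in KMS-11, -2.27 over 7 in KMS-12 and -2.27 over 7 in RPMI8226. With library size alone none was higher, and 4, 6 and 5 were lower in the 3 lines. CD79A, the signalling partner of membrane immunoglobulin and also 1 of the 6 B cell markers, fell in each line, by 2.16 in KMS-11 (SE 0.48; edgeR, adjusted p = 0.00148), by 2.85 in KMS-12 (SE 0.57; adjusted p = 0.000496) and by 2.31 in RPMI8226 (SE 0.39; adjusted p = 0.000181). Without the first DMSO library of RPMI8226 the CD79A value there was -1.61. BLNK, the adaptor downstream of it, had 0.19 and 0.224 CPM with JQ1 and 5.07 and 5.34 CPM with DMSO in KMS-11 (-4.62, SE 0.28; adjusted p = 1.52e-09). It fell by 1.88 in KMS-12 (SE 0.18; adjusted p = 1.28e-07) and by 2.27 in RPMI8226 (SE 0.14; adjusted p = 3.42e-09).

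The kinases of that pathway and CD79B gave these values. SYK had 9.09 and 7.42 CPM with JQ1 and 89.4 and 74.8 CPM with DMSO in KMS-12 (log2 fold change -3.31, SE 0.16; edgeR, adjusted p = 1.39e-10), and it fell by 0.49 in RPMI8226 (SE 0.15; adjusted p = 0.0157). BTK had 4.64 and 6.54 CPM with JQ1 and 54.5 and 55.0 CPM with DMSO in RPMI8226 (-3.30, SE 0.26; adjusted p = 7.66e-08). BLK fell by 4.10 in KMS-11 (SE 0.87; adjusted p = 0.00108), where its JQ1 libraries held 1 read, by 2.27 in KMS-12 (SE 0.86; adjusted p = 0.0388), where they held 2, and by 1.22 in RPMI8226 (SE 0.23; adjusted p = 0.00044). A difference between the 3 responses was called for 4 of the 7 surface partners tested, beside 30.1% of all genes. Of the kinases and CD79B, it was called for SYK (edgeR F test, adjusted p = 2.04e-07), BTK (3.3e-05) and LYN (0.000226), and not for BLK (0.0688) or CD79B (0.336). CD79B, the partner of CD79A, fell by 1.91 in KMS-11 (SE 0.42; adjusted p = 0.00291) and by 3.76 in KMS-12 (SE 0.82; adjusted p = 0.00222). Without the second JQ1 library of KMS-11 the CD79B value there was -2.52. LYN rose by 0.47 in KMS-11 (SE 0.12; adjusted p = 0.00477) and by 1.01 in KMS-12 (SE 0.12; adjusted p = 2.03e-06), and with library size alone neither rise was called (0.24 in KMS-12, adjusted p = 0.0925).

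**Figure D5:**
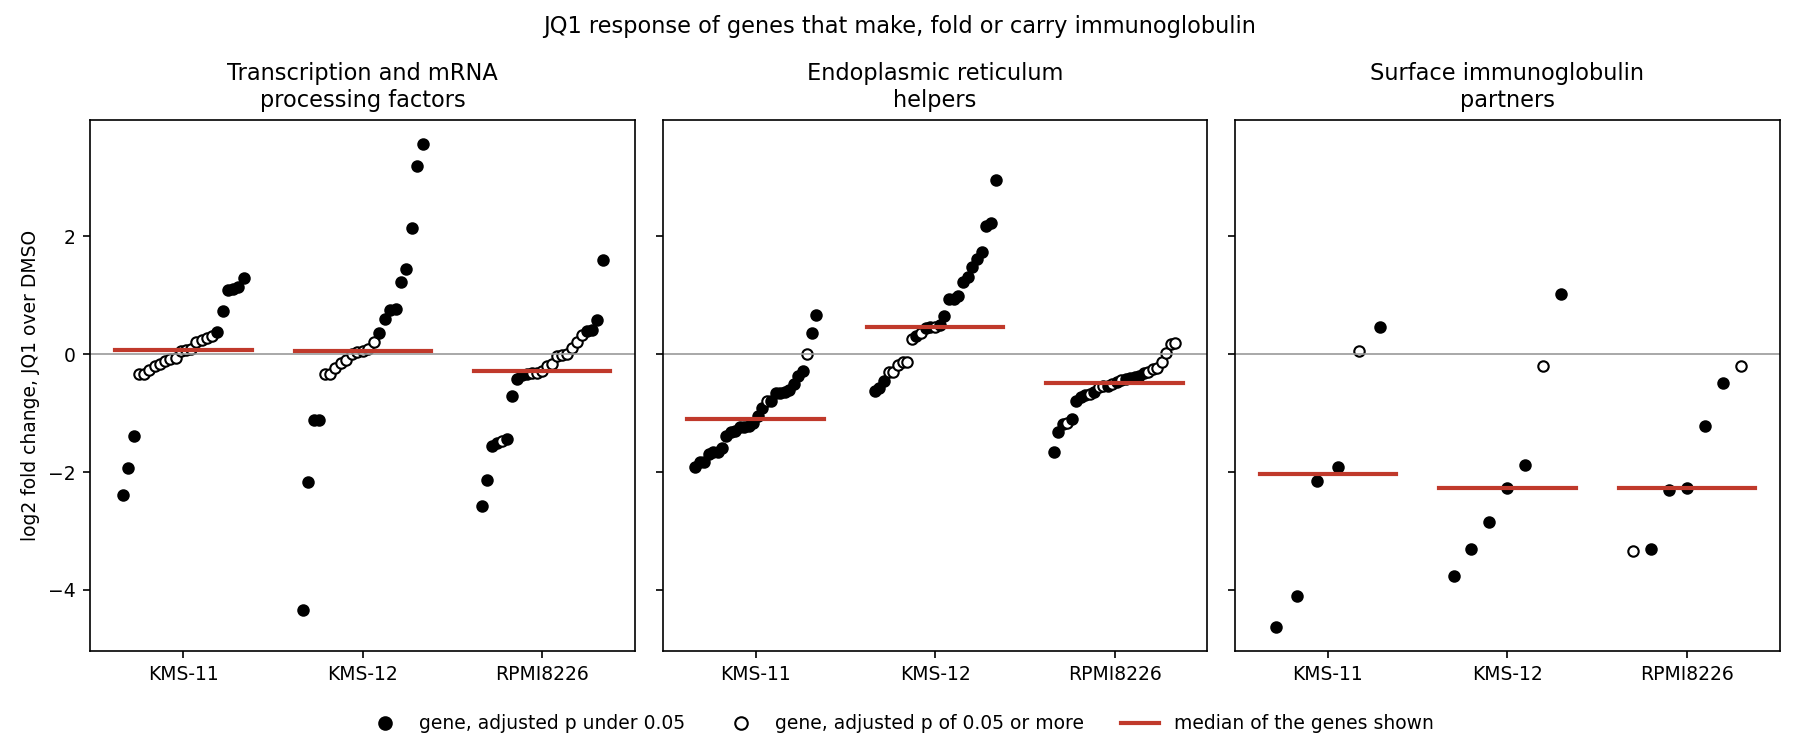
Log2 fold change of JQ1 over DMSO for each gene of 3 lists in each line, sorted within a line; filled points passed an adjusted p of 0.05, red bars are medians of the genes shown, and genes with no read in a group are not drawn. Endoplasmic reticulum helpers lie mostly below 0 in KMS-11 and mostly above 0 in KMS-12 with TMM scaling (with library size alone their KMS-12 median is -0.29, beside -0.82 for all genes), and surface partners lie mostly below 0 in each line.

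Among 10116 genes with a mean of at least 10 CPM, those whose centred log2 CPM over the 6 groups lay nearest to JCHAIN were SGK1, KCNK1 and GPR180, at a root mean square difference of 0.362, 0.388 and 0.479. SGK1 averaged 183 CPM with JQ1 and 217 CPM with DMSO in KMS-11, 3.94 CPM with JQ1 and 14.2 CPM with DMSO in KMS-12, and 51.5 CPM with JQ1 and 124 CPM with DMSO in RPMI8226. Nearest to MZB1 were ALDH3B1, RPS10P7 and OAS2, at 0.266, 0.336 and 0.569. ALDH3B1 averaged 7.02 CPM with JQ1 and 57.5 CPM with DMSO in KMS-11, 2.03 CPM with JQ1 and 20.3 CPM with DMSO in KMS-12, and 91.5 CPM with JQ1 and 131 CPM with DMSO in RPMI8226. These distances are descriptions over 6 groups, with no test.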

How the data were processed

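Total RNA from 12 libraries (3 lines, 6 groups of 2) was sequenced after ribosomal RNA removal with a stranded kit, per the labels' protocols. The authors deposited raw read counts per Ensembl gene. The submitters' processing notes name hg38, GRCh38.p13, DESeq2 and MACS2 with no role. No aligner, counter, annotation or strand setting is given in the sources used here.

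Symbols were found for 60437 of 60666 IDs (99.62%). Positions, exon lengths and sequences come from GENCODE 29, which holds 58420 of the IDs, and promoters from RefSeq (GRCh38.p14). Genes were kept with edgeR 4.0.16 in R 4.3.3 (filterByExpr, minimum count 10, minimum total 15), scaled by TMM and fitted with 6 group means by the quasi-likelihood test. P-values were adjusted by Benjamini-Hochberg over all genes tested, with a threshold of 0.05. The SE is the log2 fold change over the root of the F statistic. All libraries shared 1 estimate of spread. The method was tested on counts simulated independently from the spread that it had itself fitted. Such counts cannot test for repeat libraries of 1 culture or for replicate pairs. The members and lists were chosen with earlier results of these data known.

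Named genes were the 10 members, other constant genes with at least 100 reads in a library, and the leading IGHV, IGKV and IGLV gene by symbol in each line. Also named were up to 4 genes per list and line by smallest adjusted p, and the 3 nearest profiles. Same-numbered replicates within a line deviated together (KMS-11 r = 0.158, KMS-12 r = 0.102, RPMI8226 r = 0.375, over 10132 genes) and were taken as pairs. Same-numbered libraries of different lines gave r of -0.0928 to 0.211, so the pairing in KMS-11 and KMS-12 is weak. The pairing rests on these correlations, since the labels give only the numbers. Alternatives were other scalings and filters, DESeq2 1.42.0, limma-voom (limma 3.58.1), the replicate pairs as a block, only the groups compared, and leaving out each library. No 2 replicates differed by as little as sampling noise.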

Additional observations from a re-analysis of the deposited data

Results flagged for a closer look

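The JQ1 response differed between the 3 lines for 5 of the 9 genes tested (edgeR F test on the difference of responses, Benjamini-Hochberg adjusted p over all genes), beside 30.1% of all genes. For MZB1 the adjusted p was 9.7e-07, with falls in KMS-11 and KMS-12 and overlapping libraries in RPMI8226. For IGKC it was 1.69e-06, with a rise in KMS-11 and a fall in RPMI8226. For IGHA2 it was 0.0055, for IGHG1 0.0224 and for IGHA1 0.0337. These alpha and gamma values compare JQ1 groups with 0 or few reads, and IGHA1 passed the filter only through the DMSO libraries of RPMI8226. The IGHG1 call was lost without either JQ1 library of RPMI8226 (adjusted p = 0.119 and 0.0823), and the IGHA1 value lay between 0.0349 and 0.223 when single libraries were left out.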

How the results depend on the processing

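Over 99 single-gene results and 2097 values under alternatives, 2068 kept their direction and their side of the threshold, 13 lost a call, 14 gained one and 2 changed sign. With a mean of at least 10 CPM required, fewer genes are tested: under JQ1 KMS-11 had 3 members called, KMS-12 had 2 and RPMI8226 had 2, with 2 for the average, 2 for the difference between responses, 3 for KMS-11 against KMS-12, 4 for RPMI8226 against KMS-12 and 4 for RPMI8226 against KMS-11, and 3 of the summed copies, against 7 without it. All genes called were then 5979, 6656, 4874 and 7206 for the 3 lines and the average, and 7606, 7495 and 7054 for those 3 comparisons in DMSO. With library size alone, the count of genes that differed in response between lines was 11281, against 7070 with TMM; the cause was not tested. Library size alone also changed the share of calls that were higher, which for KMS-11 was 45% with TMM and 23.8% without, for KMS-12 44% and 7.49%, and for RPMI8226 42.2% and 39.4%. Leaving out single libraries gave 3 to 6 members with a difference in response, 3 without either JQ1 library of RPMI8226. IGHA2 in RPMI8226 over KMS-12 in DMSO was -0.21 without the second KMS-12 library and -0.05 without the first RPMI8226 library, with a range of -0.21 to 1.07; the cause was not tested. With the replicate pairs as a block within each line, KMS-11 had 5 members called, KMS-12 had 7 and RPMI8226 had 7, and 6 differed in response, IGLC2 among them. The block moved list counts also, for example: helpers lower in KMS-11 were 22 in place of 24, factors called in RPMI8226 5 higher and 11 lower in place of 4 and 9, and surface partners lower in RPMI8226 6 in place of 5. Depth limits IGHM and the alpha and gamma genes, where 3 counts equal 0.107 to 0.178 CPM.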
